A study of Danio rerio with 19 samples.

Results

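The polyadenylated RNA of the zebrafish egg was compared with that of zebrafish sperm, gene by gene, in the 1 library labelled egg and the 1 library labelled sperm, which are 2 of the 19 samples of the series. The series followed DNA methylation and gene expression from the gametes into the early embryo. RNA was sequenced from sperm, egg, 1k-cell embryos and germ ring embryos. The other 15 samples, of genomic DNA, were not used here.

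Both libraries are labelled with a gamete, egg or sperm, and with the Tubingen strain, and no treatment or genetic change is labelled for either. The labels give neither the age nor the number of the fish behind a library. The collection of gametes is described only for the bisulfite samples, where sperm were freed by disrupting testis with a pipette tip and unfertilized oocytes were squeezed from females shortly after spawning. The protocol on the RNA samples speaks of homogenized whole embryos for every library, gametes included. Total RNA was extracted with Trizol, polyadenylated RNA was captured on poly-T beads, and TruSeq libraries were sequenced on an Illumina HiSeq instrument. Bulk libraries cannot tell fewer cells of a type from less RNA per cell.

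Genes were joined by name, and the 12443 of 14244 names with a normalized count of at least 10 in either library were compared. A normalized count is the number of reads on a gene, scaled by the authors with 1 TMM factor per library. A ratio is the log2 of egg over sperm after adding 1 to each normalized count, so negative values are lower in egg. A gene was called higher or lower when it passed 2-fold. With 1 library per group there is no replicate check, no test was made and no p-value is given. Intervals and the floor of 3 reads, which is 2.98 normalized counts in sperm and 5.95 in egg, cover counting error only.

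A ripe egg carries a store of maternal messenger RNA that directs the first divisions, because the embryo's own genome stays silent at first. That store is made during oogenesis, and much of it is later adenylated, translated and degraded in order. A sperm is a nearly finished cell: its transcripts were made earlier, in spermatocytes and round spermatids of the testis, and serve meiosis, chromatin packing and the building of the flagellum.

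The sperm library held 21138688 recovered reads and the egg library 9241829. At least 1 read was found for 13549 names in sperm and 11277 in egg, and the sperm library thinned to the depth of egg would still be expected to show 13347. Fewer genes made up the egg library: 411 names held 50% of the egg total, against 760 in sperm. There were 447 names with 100 or more in sperm and no read in egg, 98 of them with 1000 or more, but only 2 the other way round. Of 300 microRNA names, 7 reached 10 in sperm and 0 in egg, while of all 14244 names 12319 did in sperm and 9640 in egg. The libraries held polyadenylated RNA, so these counts say nothing of mature microRNAs.

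Among all genes compared, 7625 were at least 2-fold lower in egg (61.3%), 1777 were higher (14.3%) and the median log2 ratio was -1.80. Ratios ranged from -6.75 at the 5th percentile to 2.06 at the 95th. Median-of-ratios scaling, which sets each library so that its middle gene equals the mean over the 4 RNA libraries, moved ratios up by about 1.27, less where counts were low, and left 5318 of 12358 genes lower (43%) and 3668 higher (29.7%), with a median of -0.49. The size of a call therefore depends on the scaling, and family medians are given under both. The direction also followed the level of a gene. Of the 2852 genes whose higher normalized count lay between 10 and 100, 5.86% were higher in egg and 74.3% lower, whereas of the 578 genes above 10000, 49.0% were higher and 35.3% lower, with a median ratio of 0.95.

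**Figure D1:**
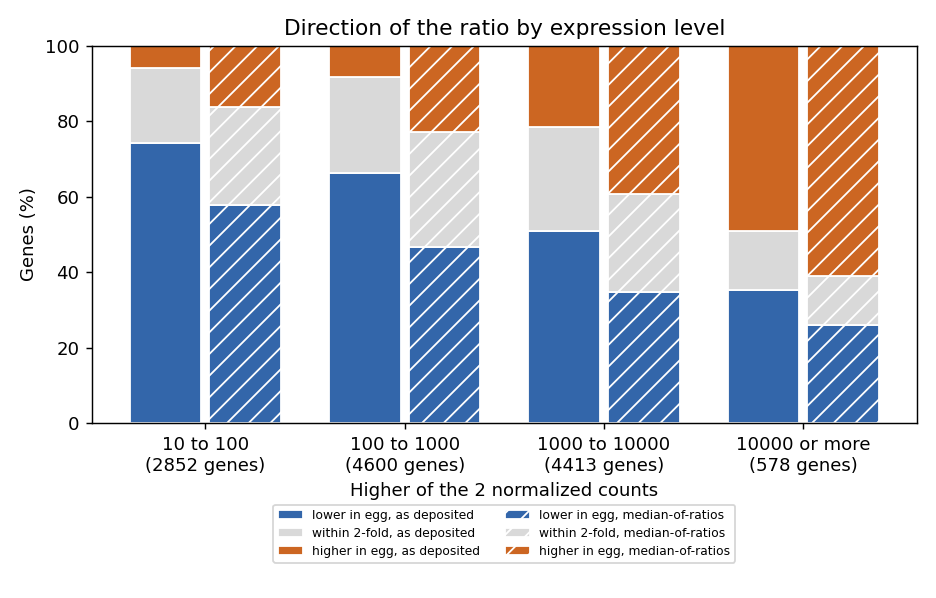
Share of genes at least 2-fold lower, within 2-fold or at least 2-fold higher in egg (y axis, percent of genes) by the higher of the 2 normalized counts (x axis), as deposited (plain) and under median-of-ratios scaling (hatched), 1 library per gamete. The share higher in egg grows from 5.86% in the lowest class to 49.0% in the highest as deposited.

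The labels were checked against markers of the cells each library could hold. The 13 markers of male germ cells were all at least 2-fold lower in egg, with 5 of them at no read there, and they made up 0.653% of the sperm reads against 0.00267% of the egg reads. They include tekt1 (listed as zgc:101797), a tektin of the flagellum, with 10904 in sperm and 3.97 in egg, and tssk6 (listed as si:dkey-11n6.4), a testis kinase, with 1512 in sperm and no read in egg. The sperm library also held markers that mature sperm are not known for. Of 7 oocyte markers, 4 of them egg coat genes, 6 were lower in egg and 0 higher, with 5 lower under median-of-ratios scaling. Oocyte markers made up 0.808% of the sperm reads against 0.022% of the egg reads. A wider list of 37 oocyte regulators and maternal-effect genes, described below, had 16 higher in egg and 8 lower as deposited. All 23 zona pellucida genes, which encode the egg coat made by the oocyte in zebrafish, were lower in egg and made up 2.64% of the sperm reads against 0.0756% of the egg reads. The spread of these genes was from 1209 to 58594 in sperm and from 3.97 to 2149 in egg.

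Markers of blood, gut glands and the gonad's somatic cells were in the sperm library too. Red blood cell markers held 0.43% of sperm reads and 0.000945% of egg reads, with 12 of 13 lower in egg. The alpha globin gene hbaa1 had 34337 in sperm and 1.98 in egg. For beta globin, ba1 had 23288 in sperm and 1.98 in egg, and ba2 lists identical values, so the pair may be 1 set of reads. The anion exchanger slc4a1a of the red cell membrane had 624 in sperm and 49.6 in egg.

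Among 12 leukocyte markers, all were lower in egg, from lyz, the lysozyme of phagocytes, with 6934 in sperm and no read in egg, to rag1, a recombinase of lymphocytes, with 44.7 in sperm and 19.8 in egg (log2 -1.13, but 0.09 with median-of-ratios scaling). The 14 markers of the exocrine pancreas, which makes digestive enzymes, were lower in egg and 11 of them had no read there. The trypsin gene prss1 (listed as try) had 11101 in sperm and no read in egg, the chymotrypsin gene ctrb.1 (listed as ctrb1) had 4859 in sperm and no read in egg and the carboxypeptidase cpa5 had 1569.6 in sperm and no read in egg. All 17 liver markers were lower in egg, led by transferrin, tfa, with 1169 in sperm and no read in egg, and apoa2 with 1045 in sperm and no read in egg. The 14 markers of skeletal muscle, 10 of gut and kidney and 9 of neurons were lower in egg as well. With median-of-ratios scaling 14, 7 and 8 of them were lower. Their median counts in sperm were low, at 95.9, 136 and 82.5. As deposited, 74.3% of all genes whose higher count lay between 10 and 100 were lower, and 66.3% of those between 100 and 1000. The highest value of any member in egg was 13.9 for liver, 5.95 for pancreas, 33.7 for muscle, 67.5 for gut and kidney and 31.8 for neurons.

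Somatic cells of the testis were read by 15 markers, of which 13 were lower in egg and 1 was higher. The Leydig cell hormone insl3 had 9689 in sperm and no read in egg and gsdf, a growth factor of the fish Sertoli cell, had 947 in sperm and 3.97 in egg. The member higher in egg was cyp11a1.1 (listed as cyp11a1), the enzyme that opens steroid synthesis, with 3837 in sperm and 13986 in egg. All 8 markers of ovarian follicle cells had no read in egg, and in sperm they ranged from 10.9 to 982. The highest of them is star, a cholesterol carrier that Leydig cells also make.

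Skin markers ran the other way. Of 25 epidermis markers, 16 were higher in egg and 3 lower, with a median ratio of 1.39, and 2.65 under median-of-ratios scaling. They took 0.784% of egg reads and 0.11% of sperm reads. The keratin krt5 alone gave 77.9% of their egg reads, and without it the shares were 0.173% and 0.0799%. The part of any of these cell types in the results that follow was not tested, and "sperm" and "egg" below mean the libraries with those labels.

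**Figure D2:**
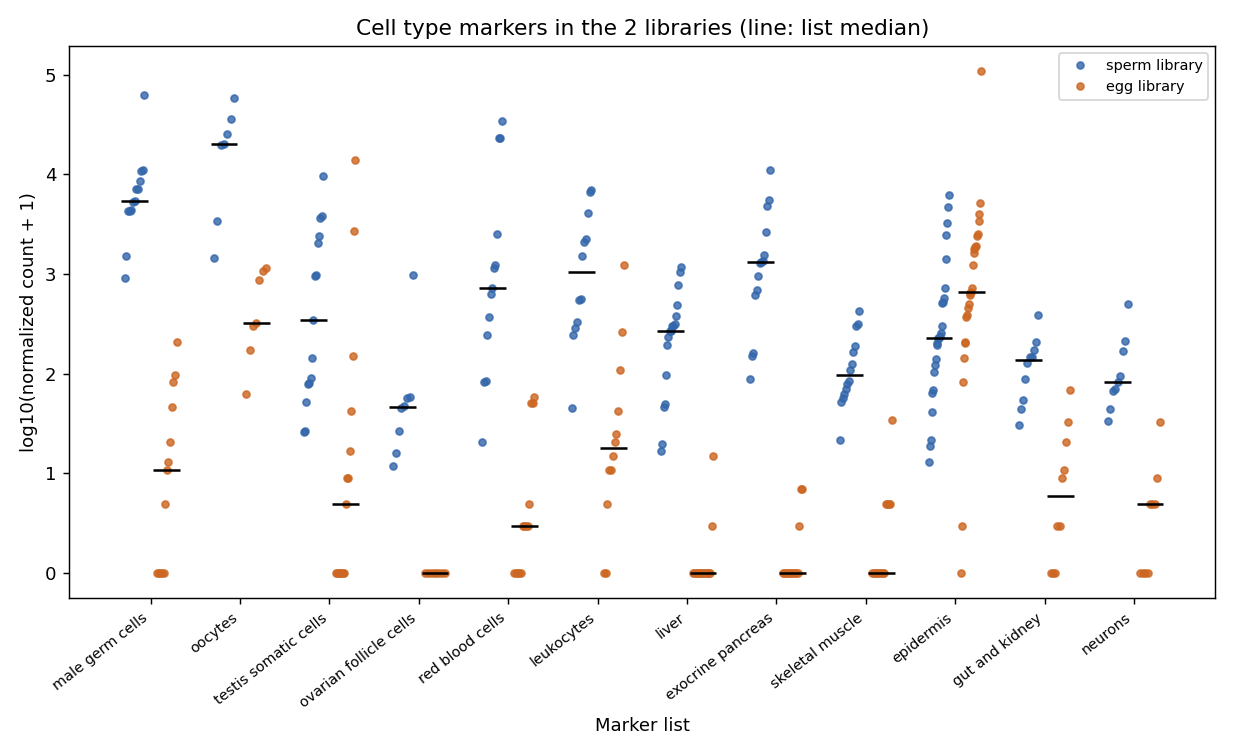
Normalized counts (y axis, log10 after adding 1) of the marker genes of 12 cell types (x axis) in the sperm and egg libraries, 1 point per gene, with a line at the median of each list. Markers of red blood cells, pancreas and liver sit near 0 in egg and up to 34337 in sperm, while epidermis markers sit higher in egg.

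Genes of the sperm tail and their regulators formed the 3 families with the lowest medians. The list of regulators was added after these values were seen, so its rank is no independent result. A list of 47 genes was taken by name for radial spokes, the central pair and the links between microtubule doublets. Of these, 45 were lower in egg and 2 higher, with a median ratio of -8.77, or -7.70 with the 17 genes at no read placed at 3 reads. Rescaled by median-of-ratios, the median was -7.70. The radial spoke gene rsph9 had 5838 in sperm and no read in egg, and the central pair gene spag6 had 5359.5 in sperm and no read in egg. The gene efhc2, which encodes a protein inside the doublet microtubules, had 12895 in sperm and 7.94 in egg. The members higher in egg were the EF-hand genes efcab7, with 367 in sperm and 1290.1 in egg, and efcab11, with 734 in sperm and 2253 in egg. Whether these EF-hand genes belong to spokes, links or the central pair was not checked. The next member in order, cfap298 (listed as c21orf59l), whose place in these structures was not checked either, kept 1143 in egg against 2797 in sperm.

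Outer and inner arm dyneins are the motors that bend the tail, and they were read together with the factors that assemble them. Of 31 such genes 26 were lower in egg and 0 higher, with a median of -7.48 (-6.28 under median-of-ratios scaling). The dynein heavy chain dnah9 was at least 1195-fold lower in egg. The assembly factor dnaaf4 (listed as dyx1c1) was at least 1048-fold lower and the docking complex gene odad3 (listed as ccdc151) at least 933-fold lower. Some light chains were within 2-fold: dnal4a had 1188 in sperm and 1179 in egg, and dynll2b, shared with cytoplasmic dynein, had 5812 in sperm and 3104 in egg. The other shared light chain gene, dynll1, was 16.1-fold lower in egg (11057 in sperm and 685 in egg).

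Intraflagellar transport carries parts along a growing cilium, and the BBSome moves membrane cargo on it. In this family 33 of 34 genes were lower in egg and 0 higher, with a milder median of -3.49 (-2.23 under median-of-ratios scaling, with 25 lower). Transport train genes were well represented in sperm: ift81 had 5981 in sperm and 81.4 in egg and ift88 had 2234 in sperm and 27.8 in egg. The BBSome gene bbs1 had 437 in sperm and 13.9 in egg, while bbip1, its smallest subunit, had 3653 in sperm and 1764 in egg (log2 -1.05, but 0.22 with median-of-ratios scaling). The transport motor kinesin was less unequal, with 672 in sperm and 522 in egg for kif3a and 4013 in sperm and 986 in egg for kif3b.

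Centriole and basal body genes did not follow the tail. Only 24 of 42 were lower in egg and 7 were higher, with a median of -1.55 as deposited. As deposited, the 57.1% lower and 16.7% higher are near the 61.3% and 14.3% of all genes. Median-of-ratios scaling gave a median of -0.29, with 14 higher and 14 lower. The centriole duplication gene stil was 6.91-fold higher in egg (21389 against 3096), and sass6, which builds the cartwheel, was 3.08-fold higher, whereas the kinase plk4, which starts duplication, was 9.96-fold lower. At the low end, cimap1b (listed as odf3b), an outer dense fiber gene, had 8550.4 in sperm and 9.92 in egg, and cep89, of the centriole's distal appendages, was 918-fold lower in egg (95% counting interval 165 to 36278). The satellite scaffold pcm1 was near equal, with 16597 and 14421.

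Tubulins, the bricks of microtubules, were lower in egg in 16 of 17 cases, with a median of -3.56 (-2.30 under median-of-ratios scaling). They took 1.18% of sperm reads and 0.259% of egg reads. The alpha tubulin tuba7l had 62611 in sperm and no read in egg, while tuba4l had 49773 in sperm and 12406 in egg and the beta tubulin tubb4b had 71254 in sperm and 27879 in egg. The enzymes that add or remove amino acids on tubulin tails, a mark of stable axonemes, followed: 11 of 13 were lower in egg, with a median of -3.20 (-1.98 and 10 lower under median-of-ratios scaling). Of these, the ligase ttll3 was 2000.2-fold lower in egg (95% counting interval 359 to 79021), and ttll1 was 248-fold lower. The deglutamylase agtpbp1 was level, at 158 in sperm and 153 in egg.

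Kinesins, the motors of spindle and transport, stood apart from tubulins. Their median ratio of -0.36 turned to 0.90 with median-of-ratios scaling and 0.70 with the upper quartile, and 2 of 19 were higher and 7 lower as deposited. Mitotic motors were the higher ones: kif22 (listed as zgc:171724), which pushes chromosome arms, was 4.43-fold higher in egg, and kif11, which separates spindle poles, was 2.11-fold higher. The ciliary motor kif6 was 107-fold lower in egg (95% counting interval 36.4 to 520.0).

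Transcription factors that switch on ciliary and spermatogenic genes were lower in egg in 13 of 16 cases and higher in 2. Their median was -9.67, or -7.73 with genes at no read placed at 3 reads, and -8.53 with 11 lower under median-of-ratios scaling. The master gene of motile cilia, foxj1a, had 6816 in sperm and no read in egg, and the heat shock factor of spermatocytes hsf5 had 14026 in sperm and no read in egg. The cyclic AMP response gene cremb (listed as zgc:112054), of a family that drives the spermatid program in mouse, had 5446 in sperm and 3.97 in egg. Factors of the rfx family differed, with rfx3 at 12389 in sperm and 371 in egg and rfx2 at 3292 in sperm and 484 in egg. The general factor relatives tbpl1 and taf7 were higher in egg, tbpl1 with 5736 against 1876 and taf7 with 1046 against 383.

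**Figure D3:**
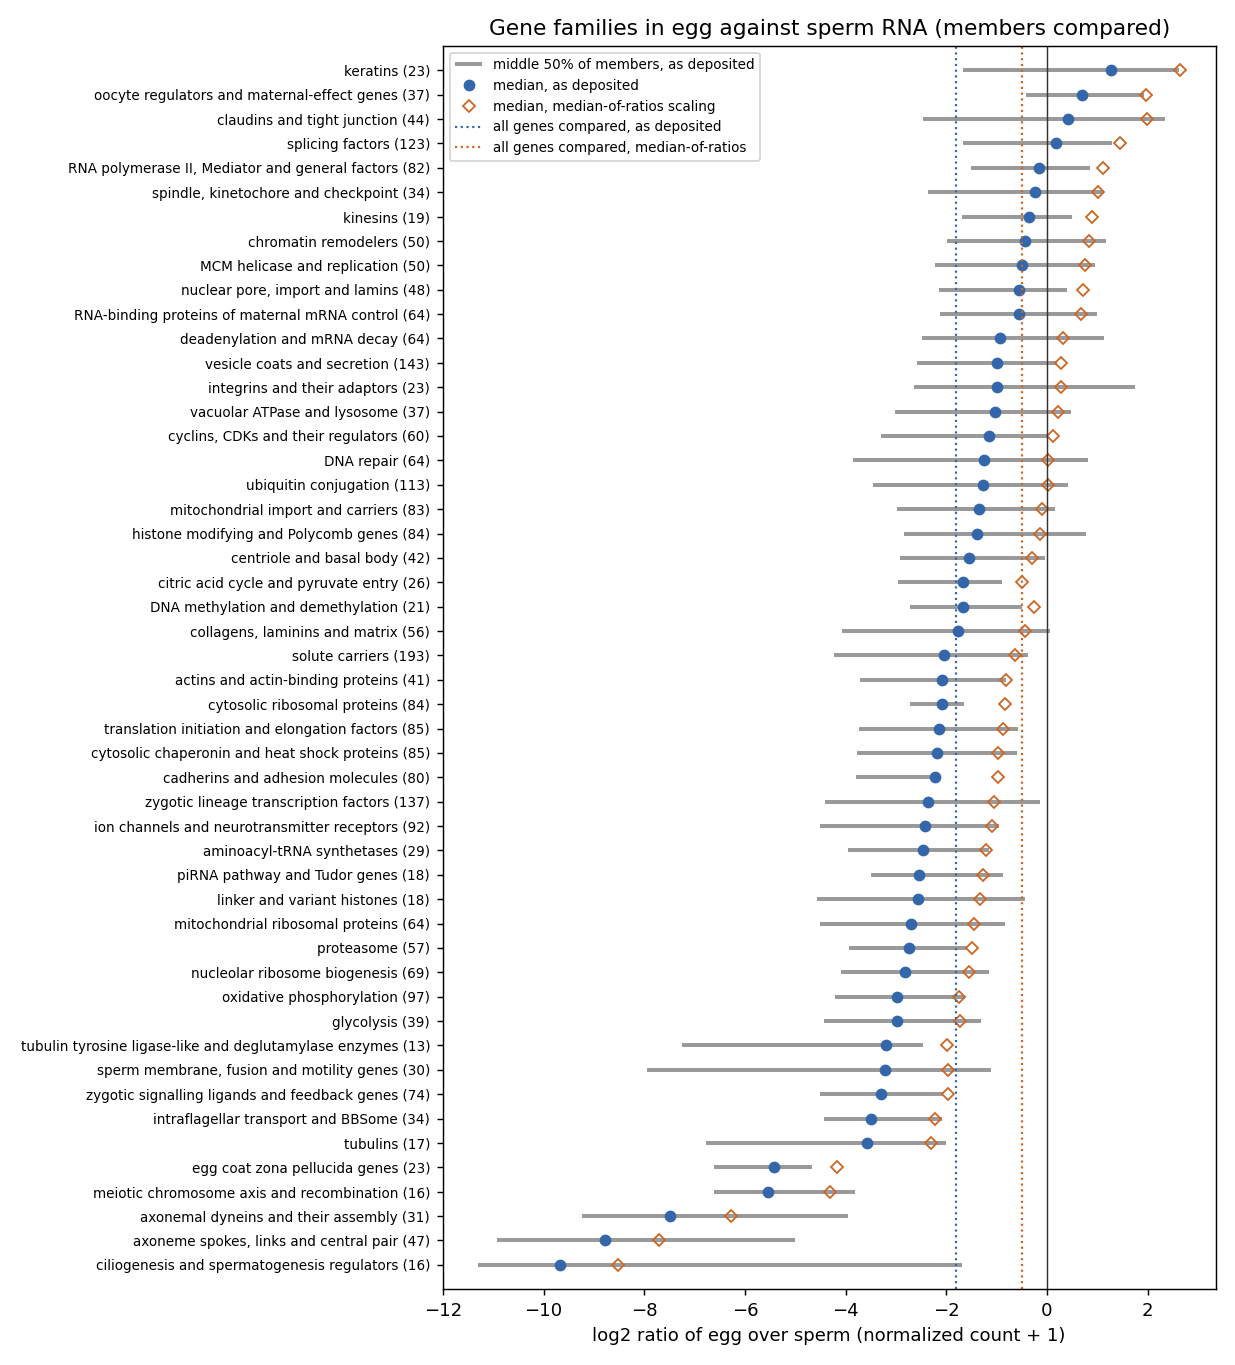
Median log2 ratio of egg over sperm (x axis) for 50 gene families (y axis, with the number of genes compared), as deposited (circles, with the middle 50% of members as bars) and under median-of-ratios scaling (diamonds). Dotted lines mark the median of all genes compared, -1.80 as deposited and -0.49 rescaled; sperm tail families lie at the low end and keratins at the high end.

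Meiosis pairs and recombines chromosomes before the divisions that reduce their number. In the family of chromosome axis and recombination genes, 14 of 16 were lower in egg, with a median of -5.54 (-4.32 under median-of-ratios scaling). The synaptonemal complex genes sycp1 and syce2 had 7164 and 7426 in sperm, against 81.4 and 65.5 in egg. The cohesin rec8b (listed as zgc:136888) was at least 189-fold lower in egg, while terb2 (listed as zgc:111992), which ties telomeres to the nuclear envelope, was 106-fold lower. The checkpoint ATPase trip13, which works outside meiosis as well, had 1379 in sperm and 1859.7 in egg.

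The piRNA pathway guards the germ line against transposons, and its genes were less one-sided: 12 of 18 were lower in egg and 1 passed 2-fold the other way, with a median of -2.54 (-1.28 under median-of-ratios scaling). As deposited that is 66.7% lower and 5.56% higher, beside 61.3% and 14.3% of all genes. Rescaled, the family counted 11 lower against 3 higher. The member higher in egg as deposited was gtsf1 (listed as zgc:56699), a small zinc finger partner of Piwi proteins, with 7311 in sperm and 16747 in egg. The Tudor genes spread from tdrd5, with 3676 in sperm and 135 in egg, to tdrd6a (listed as tdrd6), with 2796 in sperm and 2018 in egg. The methyltransferase henmt1, which caps the 3′ ends of piRNAs, was 25.6-fold lower in egg.

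Genes known for sperm membranes, fusion and motility were lower in egg in 24 of 30 cases, with a median of -3.21 (-1.97 under median-of-ratios scaling). The acrosome-named gene spaca9 (listed as zgc:153740) was at least 633-fold lower in egg; spata17 was at least 184-fold lower. The name of the member higher as deposited, spag7, comes from sperm antigens, yet it had 4545 in egg against 1067 in sperm. The anchoring protein akap8l was level, at 7471 and 7639.

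The egg coat genes ranged widely around a median of -5.43 (-4.16 under median-of-ratios scaling). The zp3 group reached 58594 in sperm and 1137 in egg for zp3b, and 55687 and 2149 for zp3.2. The zp2 group was more unequal, with 20360.2 in sperm and 61.5 in egg for zp2.2, which is 331-fold lower in egg. At the mild end, zp3d.1 (listed as zgc:66432) was 6.36-fold lower in egg (718 against 4573). The median member had 21552 in sperm, 324 in egg, 601 in 1k-cell embryos and 598 in germ ring embryos. Near-identical copies of these genes may share reads, so the values of single copies are uncertain while all of them were at least 2-fold lower under both scalings.

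Other oocyte genes were read by a wider list. Of 37 oocyte regulators and maternal-effect genes, 16 were higher in egg and 8 lower, with a median ratio of 0.70 as deposited and 1.96 under median-of-ratios scaling. Their reads made up 4.34% of the egg library and 1.54% of the sperm library. The ubiquitin ligase trim36, needed for dorsal determination in frog eggs, was 4.50-fold higher in egg, with 38952 in egg. The ligase lnx2b was 5.36-fold higher in egg, whereas its copy lnx2a was 10.1-fold lower.

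The lower members of this family are known oocyte products as well. The translational repressor zar1 of growing oocytes had 36298 in sperm and 322 in egg, the nucleoplasmin npm2a had 937 in sperm and 19.8 in egg and its copy npm2b (listed as npm2) had 3493 in sperm and 689 in egg. The meiotic kinase mos, which holds the ripe egg in metaphase, had 8356 in sperm and 1770.4 in egg. The growth factor bmp15 of the oocyte had 3379 in sperm and 869 in egg, while its partner gdf9 had 1435 and 1069.8.

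Maternal messages are stored, adenylated and removed by RNA-binding proteins and deadenylases. The 64 RNA-binding genes had a median of -0.56 that crossed to 0.69 under median-of-ratios scaling, with 14 higher and 23 lower as deposited. The stabilizer elavl1a (listed as elavl1) was 4.79-fold higher in egg and igf2bp1 was 7.18-fold higher. The neural relative elavl4 was 125-fold lower in egg (95% counting interval 34.5 to 1038). The polyadenylation factor cpeb1b (listed as zorba) was within 2-fold (25380.0 in sperm and 16769 in egg), and caprin2 had 24320.0 in sperm and 2588 in egg.

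Among 64 deadenylation and decay genes, 17 were higher and 32 lower, and the median of -0.94 turned to 0.32 under median-of-ratios scaling. The destabilizing factor khsrp, which binds AU-rich elements, was 14.0-fold higher in egg (49776 against 3563), and zfp36l2, another such factor, was 4.99-fold higher. Its relative zfp36l1b was 19.3-fold lower in egg. The poly(A) nuclease subunit pan3 was 8.93-fold higher in egg and the exonuclease xrn1 7.36-fold higher, while the deadenylase scaffold cnot1 was 8.73-fold lower and the exosome subunit exosc3 39.3-fold lower.

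Splicing factors were the largest family with a median above 0. Of 123, 40 were higher in egg and 40 lower, and the median was 0.19 as deposited and 1.45 under median-of-ratios scaling, which counts 71 higher and 19 lower. They took 4.84% of egg reads and 2.14% of sperm reads. The core particle gene snrpb was 4.17-fold higher in egg and snrpc, of the U1 particle, 4.39-fold higher. Of the heterogeneous ribonucleoproteins, hnrnpabb (listed as zgc:77052) had 24022 in sperm and 86769 in egg and hnrnpc 4297 in sperm and 23711 in egg. The opposite held for hnrnpa3, with 1337 in sperm and 3.97 in egg, and for the meiotic regulator rbm46, with 4635 in sperm and 464 in egg.

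The machinery of transcription was close to balance. For RNA polymerase II, Mediator and general factors the median of -0.16 turned to 1.11 under median-of-ratios scaling and above 0 under every other scaling tried, with 18 of 82 higher and 31 lower. Subunits of 1 complex could differ widely: in Mediator, med25 was 5.89-fold higher in egg and med16 (listed as lppr3b) 5.25-fold higher, but med30 (listed as thrap6) was 34.4-fold lower and med7 29.9-fold lower. The polymerase subunit polr2k (listed as zgc:171795) had 1678 in sperm and 7.94 in egg, and the initiation factor gtf2a1 had 14140.4 in sperm and 38609 in egg.

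Nuclear pore, import and lamin genes had a median of -0.55 that crossed to 0.71 under median-of-ratios scaling, with 9 of 48 higher and 18 lower. The B-type lamin gene lmnb1 was 6.38-fold higher in egg, and the oocyte importin kpna7 (listed as zgc:55877) was 2.48-fold higher (38930.0 against 15707). The importin kpna5 was 19.0-fold lower in egg.

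Cyclins and their kinases drive the cell cycle. Of 60 cyclins, kinases and regulators, 8 were higher and 31 lower, and the median of -1.14 turned to 0.12 under median-of-ratios scaling. As deposited that is 13.3% higher and 51.7% lower, beside 14.3% and 61.3% of all genes. The mitotic cyclins ccnb1 and ccnb2 were 3.75-fold higher in egg and 4.53-fold higher. Relatives parted: the oocyte kinase wee2 was 3.59-fold higher in egg and wee1 38.5-fold lower, and ccne1 was 22.0-fold higher and ccne2 125-fold lower. The phosphatase cdc14aa had 1858 in sperm and 1.98 in egg, and the D cyclin ccnd3, which answers growth signals, had 2528 in sperm and 55.6 in egg. The activator cdc20 of the anaphase complex was 3.05-fold higher in egg.

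Spindle, kinetochore and checkpoint genes had a median of -0.24 that crossed to 1.02, with 10 of 34 higher and 15 lower as deposited. The mitotic kinases plk1 and aurkb had 57213 and 30465 in egg against 20666 and 6299 in sperm. The kinetochore gene nuf2 was 78.3-fold lower in egg. The checkpoint gene bub3 was 3.25-fold higher in egg.

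Replication genes gave a median of -0.50 that crossed to 0.76 under median-of-ratios scaling, with 13 of 50 higher and 21 lower. The origin recognition gene orc1 was 4.68-fold higher in egg and cdc6 (listed as zgc:174506), which loads the helicase, 5.76-fold higher, while orc3 was 5.02-fold lower. The helicase itself was uneven across its subunits: mcm7 had 19614 in sperm and 33460.2 in egg, mcm4 had 9533 in sperm and 559.7 in egg and mcm6 had 3029 in sperm and 3.97 in egg. The nucleotide reductase subunit rrm2 was 30.4-fold higher in egg.

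DNA repair genes had a median of -1.24 that crossed to 0.02 under median-of-ratios scaling, with 14 of 64 higher and 32 lower. The uracil glycosylase unga (listed as ung) was 3.58-fold higher in egg and neil3, which removes oxidized bases, 3.51-fold higher. The cohesin ring subunit copies split, with rad21a (listed as rad21) 8.20-fold higher in egg and rad21b (listed as si:ch211-246f9.1) at least 51.7-fold lower. The meiotic form rad21l1 was 27.3-fold lower in egg.

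Chromatin remodelers and condensins gave a median of -0.43 that crossed to 0.84 under median-of-ratios scaling, with 17 of 50 higher and 20 lower. The condensin genes smc4 and ncapd2 had 33192 and 29076 in egg against 6721 and 6486 in sperm. The SWI/SNF subunit smarce1 was 4.17-fold higher in egg, and the bromodomain gene brd2a 15.5-fold lower. Histone modifying and Polycomb genes had a median of -1.40 (-0.13 rescaled), with 19 of 84 higher and 46 lower. As deposited that is 22.6% higher and 54.8% lower, beside 14.3% and 61.3% of all genes.

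Among the cbx genes for readers of repressive marks, the Polycomb reader cbx2 was 21.1-fold higher in egg, but its relatives cbx8a and cbx8b were 16.0-fold lower and 7.39-fold lower. The heterochromatin protein genes cbx3a and cbx5 were 8.28-fold higher in egg and 3.78-fold higher. The copies of cbx1 split, with cbx1a 3.00-fold higher in egg and cbx1b 66.6-fold lower. The arginine methyltransferase prmt1 was 4.09-fold higher in egg, while prmt6 was 23.3-fold lower.

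Of 21 DNA methylation and demethylation genes, 3 were higher in egg and 14 lower, with a median of -1.66 (-0.26 rescaled). Their 14.3% higher and 66.7% lower are near the 14.3% and 61.3% of all genes. The family held 0.408% of egg reads and 0.132% of sperm reads. Most of the egg reads belong to the maintenance enzyme dnmt1, with 58757 in egg and 12178 in sperm. The methyl-binding copies mbd3a and mbd3b split, at 6141 against 2531 and 59.5 against 1313. The stress genes gadd45ab and gadd45ga (listed as gadd45g) were 24.8-fold lower in egg and 106-fold lower.

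Of 18 linker and variant histones, 13 were lower in egg and 2 higher, with a median of -2.56 (-1.33 rescaled). The variant h3f3c had 29661 in sperm and 829.6 in egg, while h3f3d, another gene for histone H3.3, was level at 23793 and 24390.1. The H2A.Z names h2afv and h2afz were higher in egg and have nearly equal values, 13851 and 13867, so they may share reads. The repair-linked variant h2ax (listed as h2afx) was 44.5-fold lower in egg, and the centromere histone cenpa 3.54-fold lower.

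As deposited, several families that run every cell were mostly lower in egg, as were 61.3% of all genes compared. Others were not, such as splicing factors, with 32.5% lower. Cytosolic ribosomal protein genes held 5.38% of sperm reads and 1.47% of egg reads, and 78 of 84 were lower and 0 higher, with a median of -2.09. That median lies -0.29 from that of all genes, and the middle 50% of members spanned only -2.73 to -1.65, against -3.80 to 0.04 for all genes. Rescaled, 34 stood lower and 1 higher, with a median of -0.82. Members ran from rpl5b, at 10118 and 9142, to rplp2 of the ribosomal stalk, at 8806 and 413.

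Ribosome assembly in the nucleolus was lower still, with 54 of 69 genes lower and a median of -2.82 (-1.55 rescaled). The processing factors wdr43 and imp3 had 6019 and 5616 in sperm and 75.4 and 85.3 in egg. The nucleophosmin npm1a had 5173 in sperm and 9777 in egg, within 2-fold, and npm1b was 4.90-fold higher in egg. Mitochondrial ribosomal proteins had a median of -2.70 (-1.44 rescaled), with 47 of 64 lower and 5 higher, among them mrps30, 5.03-fold higher in egg.

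Translation factors had 60 of 85 members lower and 6 higher, with a median of -2.15 (-0.88 rescaled). The helicase eif4a1a was 4.08-fold higher in egg, and the cap-binding relative eif4e3 6.53-fold higher. The main elongation factor eef1a1l1 was near level, with 104552 in sperm and 88234 in egg. Aminoacyl-tRNA synthetases, which charge tRNAs, had no member higher as deposited, 22 of 29 lower and a median of -2.47. Rescaled, 16 were lower and 3 higher, with a median of -1.22.

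Protein turnover followed the same direction in part. The proteasome had 47 of 57 genes lower and 2 higher, with a median of -2.75. Rescaled, 35 were lower and 8 higher, with a median of -1.48. The members higher as deposited were both nuclear activators of the core, psme3, 4.11-fold higher in egg, and psme4b, 2.70-fold higher. The testis core subunit psma8 was 19.2-fold lower in egg, and the regulatory subunit psmd4a 80.4-fold lower. Ubiquitin conjugation genes had a median of -1.27 that crossed to 0.03 under median-of-ratios scaling, with 18 of 113 higher and 60 lower. As deposited that is 15.9% higher and 53.1% lower, beside 14.3% and 61.3% of all genes. In that family fbxo43 (listed as zgc:66488), which restrains the anaphase complex in eggs, was 9.49-fold higher in egg with 53815 in egg.

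Chaperones had 60 of 85 members lower and 8 higher, with a median of -2.18 (-0.96 rescaled). The constitutive Hsp70 gene hspa8 was level, at 60513 and 60749.9, whereas the chaperone hspa5 of the endoplasmic reticulum had 62439 in sperm and 1921 in egg. The J-domain gene dnajc5ga was 23.2-fold higher in egg, and dnajb13, a radial spoke chaperone, at least 703-fold lower.

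Cells draw energy from respiration and glycolysis. Of 97 oxidative phosphorylation genes 77 were lower and only 1 higher, and the median was -2.98 (-1.74 rescaled, 12 higher and 68 lower). The ATP synthase beta chain atp5f1b (listed as atp5b) had 27979.8 in sperm and 996 in egg, and cox5b2 of cytochrome oxidase had 3799 in sperm and 1.98 in egg. The somatic cytochrome c gene cycsb was within 2-fold, with 9156 in sperm and 12269 in egg.

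Glycolysis genes had 32 of 39 members lower and 2 higher, with a median of -2.98, or -2.61 with genes at no read at their bound, and -1.73 rescaled. The enolase eno4 (listed as zgc:153973), known from the sperm tail in mouse, had 3191 in sperm and no read in egg, while gapdh had 14502 in sperm and 865 in egg. The regulatory enzyme pfkfb4 was 9.01-fold higher in egg. Citric acid cycle genes had a median of -1.66 (-0.49 rescaled) with 18 of 26 lower, and that median lies 0.14 above the median of all genes. The isocitrate dehydrogenases parted, with cytosolic idh1 3.18-fold higher in egg and mitochondrial idh2 24.0-fold lower.

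Mitochondrial import and carrier genes had a median of -1.35, close to -0.09 rescaled over 4 libraries and just above 0 when rescaled over egg and sperm alone. Of 83 members 9 were higher and 49 lower. As deposited, both shares are near the 14.3% higher and 61.3% lower of all genes. Rescaled over 4 libraries, 27 stood higher and 29 lower. The iron carrier slc25a37 was 12.1-fold higher in egg, and the ADP/ATP carrier slc25a5 was level, at 39255 and 43902.

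Lysosomal genes had a median of -1.04 that crossed to 0.23 under median-of-ratios scaling, with 7 of 37 higher and 20 lower. As deposited that is 18.9% higher and 54.1% lower, beside 14.3% and 61.3% of all genes. The higher members included proteases, of a kind that also breaks down yolk, and a lipid carrier: ctsla (listed as ctsl1a) was 4.67-fold higher in egg with 78233 in egg, ctsba 2.18-fold higher, and the sterol carrier npc2.1 (listed as npc2) 6.22-fold higher. The proton pump subunit atp6v1e1b was 24.3-fold lower in egg. Vesicle coat and secretion genes had a median of -0.99 that crossed to 0.28, with 17 of 143 higher and 71 lower, from rab6ba (listed as rab6b), 33.4-fold higher in egg, to rab36, at least 378-fold lower.

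Actins and their partners had 29 of 41 members lower in egg, 3 higher and a median of -2.08 as deposited. That is 70.7% lower, beside 61.3% of all genes. Rescaled, 19 were lower and 8 higher, with a median of -0.82. The cytoplasmic actins actb2 and actb1 were among the 10 names with most reads in sperm, at 121297 and 83539, against 18178 and 5785 in egg. The thymosin tmsb5 (listed as si:dkey-167i21.2) had 43516 in sperm and 99.2 in egg. The actin-disassembly gene wdr1 was 4.33-fold higher in egg.

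Keratins, which form filaments in epithelia, had the highest median of the 50 families as deposited. The 23 keratins and partner proteins split into 13 higher and 8 lower, around a median of 1.28, which is 3.08 above that of all genes, and 2.65 rescaled. They took 1.16% of egg reads and 0.116% of sperm reads. The type II keratin krt5 had 6201 in sperm, 109093 in egg, 82.7 in 1k-cell embryos and 25968 in germ ring embryos. The keratins krt91 (listed as zgc:92533) and krt97 (listed as zgc:92061) had 68072 and 8227 in egg, and 33.3 and 5.70 at the 1k-cell stage. Of simple epithelial keratins, krt8 was 2.86-fold lower in egg and krt18b (listed as zgc:77517) 29.0-fold lower.

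Claudins seal tight junctions. With their partners, 21 of 44 were higher in egg and 16 lower, and the median was 0.41 as deposited and 1.98 rescaled. The egg library gave them 2.85% of its reads and the sperm library 0.615%. Of this, cldnd alone had 285730.4 in egg, the most of any name there, and 70404 in sperm. In the embryo libraries it stood at 46330.0 (1k-cell) and 7062 (germ ring). The scaffold tjp2b was 15.7-fold higher in egg and occludin, oclna, 7.65-fold higher. At the low end, cldn2 was 32.6-fold lower in egg, and cldn11a had 113 in sperm and 1.98 in egg.

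Some of these genes mark skin and some do not. The epidermal claudins cldne and cldni had 498 and 2403 in egg but 1.90 and 0 at the 1k-cell stage, and the skin collagen genes col1a2 and col1a1a had 1798 and 2501 in egg and 0 and 30.4 at the 1k-cell stage. The junction genes tjp2b and oclna, and the early cadherin cdh1, kept 4430.5, 12459.6 and 20074 at the 1k-cell stage. The 1k-cell values come from 1 further library, and the part of skin cells in these values was not tested.

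Adhesion also runs through cadherins and matrix. Of 80 cadherin-type genes 67 were lower and 5 higher as deposited, with a median of -2.22. That is 83.8% lower and 6.25% higher, beside 74.3% and 5.86% of all genes whose higher count lay between 10 and 100. Rescaled, 31 of 66 were lower and 12 higher, with a median of -0.96. Clustered protocadherins with shared exons may share reads. The higher members included cdh1, 6.79-fold higher in egg, and the catenins ctnnb2, 3.05-fold higher, and ctnnb1, 2.13-fold higher, which link cadherins to actin and carry Wnt signals. Matrix genes had a median of -1.77 (-0.44 rescaled), with 11 of 56 higher and 36 lower. Their 19.6% higher and 64.3% lower stand beside the 14.3% and 61.3% of all genes.

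Integrins, the receptors of matrix, had a median of -0.99 that crossed to 0.28, with 7 of 23 higher and 11 lower. The chains that pair in skin hemidesmosomes were the highest, itga6b at 44.7 and 2066, and itgb4 at 57.6 and 1969, with 46.6 and 20.9 at the 1k-cell stage. The fibronectin receptor itga5 was 16.1-fold higher in egg and kept 2645 at the 1k-cell stage.

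Ligands and lineage factors are largely switched on later, by the embryo itself. For signalling ligands and feedback genes 74 names could be compared and 30 lay under the floor, and of those compared 64 were lower and 2 higher, with a median of -3.30 (-1.97 rescaled, and -2.31 as deposited with genes at no read placed at 3 reads). Of these ligand and feedback genes, 86.5% were lower and 2.70% higher, beside 74.3% and 5.86% of all genes between 10 and 100. The maternal TGF-beta ligand gdf3 (listed as dvr1) had 22838 in sperm and 36995 in egg, and the Notch ligand dld had 579 in sperm and 7.94 in egg. Among 137 lineage transcription factors 90 were lower and 17 higher, with a median of -2.35 (-1.05 rescaled), and 43 had no read in egg. Their 65.7% lower and 12.4% higher are near the 61.3% and 14.3% of all genes, and the share lower is under the 74.3% of all genes between 10 and 100. With genes at no read placed at 3 reads, the median was -1.74. The skin factor tfap2c, 12.9-fold higher in egg, had 371 in egg, and gata3, 25.5-fold lower, had 1669 in sperm.

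Transport across the membrane showed both directions. Of 193 solute carriers 130 were lower and 26 higher, with a median of -2.05 (-0.63 rescaled). Their 67.4% lower and 13.5% higher are near the 61.3% and 14.3% of all genes. The amino acid transporter slc38a7 was 12.1-fold higher in egg, and the cationic amino acid transporter slc7a1b (listed as zgc:63694) was 21.6-fold lower, with 54289.6 in sperm. Ion channels and receptors had 69 of 92 lower and 7 higher, with a median of -2.43 (-1.09 rescaled). Their 75% lower and 7.61% higher are near the 74.3% and 5.86% of all genes whose higher count lay between 10 and 100. The potassium channel kcnh2 had 5850.3 in sperm and was 983-fold lower in egg (95% counting interval 336 to 4766), and the acetylcholine receptor subunit chrnb3b had 838 in egg and was 52.7-fold higher.

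**Figure D4:**
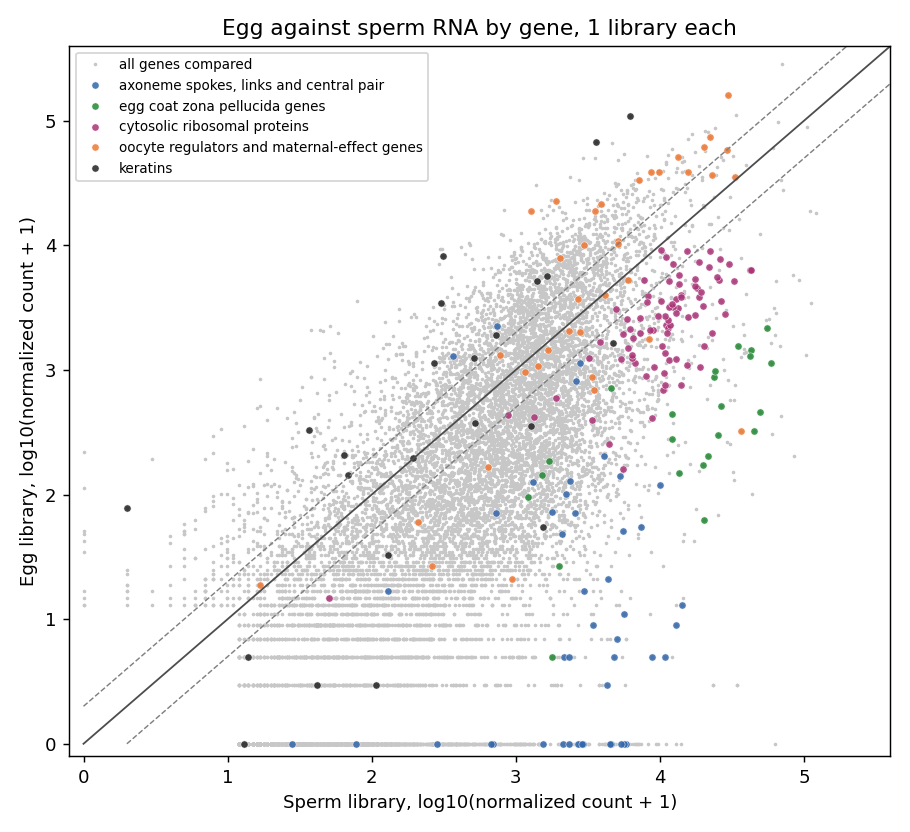
Normalized count of each gene compared in sperm (x axis) and egg (y axis), both log10 after adding 1, with 5 families coloured, a solid line at equality and dashed lines at 2-fold. Most axoneme genes and the egg coat genes lie below the lines, ribosomal protein genes lie in a narrow band under equality, and keratins and oocyte regulators reach above it.

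The 10 names with most reads in egg were led by the tight junction gene cldnd, the zinc finger gene cth1, cldng and krt5, with 285730.4, 160517, 110675 and 109093. In sperm they were led by actb2, at 121297, followed by zgc:171750, a clone name, at 111013 against 3439 in egg, and by the chaperone hsp90ab1, at 110517 against 18793. Another clone name, zgc:55461, had 103774 in sperm and 1324 in egg. The elongation factor eef1a1l1 was the 1 name in both sets of 10, apart from cldnd.

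The extremes over all named genes with 100 or more in either library repeat these families on the low side: among the 15 lowest were tail genes such as daw1 (listed as wdr69), with 6706 in sperm and no read in egg, globins, and lyz. The high side drew from no single list. The gene with the highest ratio, scpp7, of the secreted calcium-binding phosphoproteins of teeth and scales, had 111 in egg and no read in sperm, which makes it at least 37.3-fold higher in egg. The nuclear receptor esrrgb had 191 in egg and 2 reads in sperm, and was 95.9-fold higher in egg (95% counting interval 25.8 to 803). The decoy receptor il13ra2 was 56.5-fold higher in egg and the adaptor pid1 44.8-fold higher, and the latter had 2271 in egg and 2959 in 1k-cell embryos.

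Several names at the top were at or near 0 at the 1k-cell stage. The bile acid enzyme cyp7a1 (listed as cyp7a1a) had 2076 in egg, 42.7 in sperm and 4.75 at the 1k-cell stage. The prostaglandin synthase ptgs2a, whose product acts at ovulation, had 292 in egg, 6.95 in sperm and 0 at the 1k-cell stage. The matrix gene paplnb had 512 in egg and was likewise at 0 at the 1k-cell stage. In contrast sh2d5 had 9386 in egg and 4526 in 1k-cell embryos.

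Zebrafish hold many genes as paired copies, whose names often end in a and b. There were 673 pairs of names that differ only in a final a or b, with both at 50 or more in either library. These pairs include different subunits or relatives named by a letter, such as sdha and sdhb, so the counts are of name pairs and not of copies. The ratios within a pair differed by a median of 2.02 on the log2 scale and were 4-fold or more apart in 339 pairs (50.4%), or 346 under median-of-ratios scaling. Both names were lower in egg in 221 pairs and both higher in 37. In 89 pairs, or 109 rescaled, 1 name was at least 2-fold higher in egg and the other at least 2-fold lower. Of all genes compared, 61.3% were lower and 14.3% higher as deposited. Whether paired names differ more often than unrelated names was not tested. Among the 478 pairs whose shared stem ends in a digit, which leaves out many such subunits, the median was 2.04, 244 pairs were 4-fold or more apart (51.0%) and 59 went in opposite directions, or 81 rescaled.

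Several pairs of opposite direction were copies of 1 gene. The regulatory subunit of protein kinase A had prkar1aa 3.00-fold higher in egg and prkar1ab 102-fold lower, and its catalytic chain had prkacbb 5.16-fold higher and prkacba 73.1-fold lower (95% counting interval 12.9 to 2906). The cell death gene pair had baxa 3.76-fold higher in egg and baxb 17.0-fold lower. The blood factor pair had gata2b 7.18-fold higher in egg and gata2a 8.46-fold lower. For the widest of these pairs, nr2f1a had 334 in sperm and no read in egg and nr2f1b had 147 in sperm and 1349.6 in egg. The apolipoprotein copies apoeb and apoea had 7411 and 0 in egg against 2926 and 101 in sperm.

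**Figure D5:**
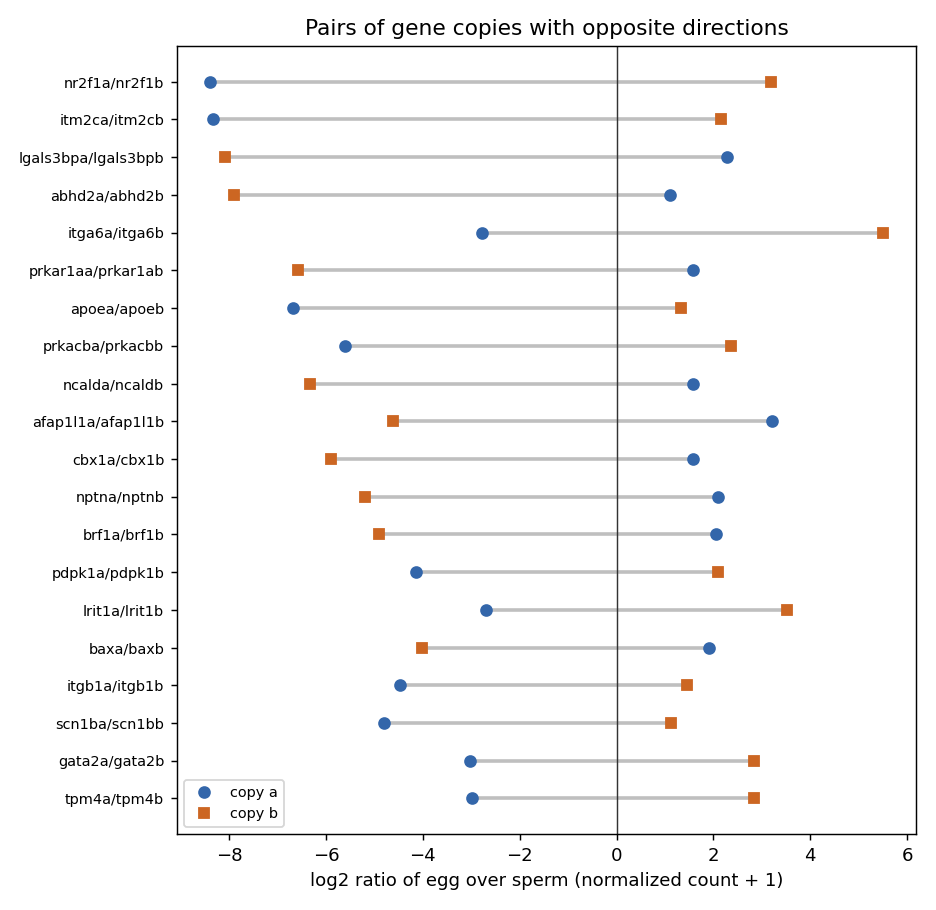
Log2 ratios of egg over sperm (x axis) of both copies in the 20 pairs of names with opposite direction and the widest gap (y axis, 1 pair per line), as deposited, 1 library per gamete. The pairs were chosen for this gap, and nr2f1a and nr2f1b lie farthest apart, at -8.39 and 3.19.

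Across the 50 families, 4 had a median above 0 as deposited: keratins, oocyte regulators, claudins and splicing factors. Medians of 24 families lay above that of all genes and 26 below. Under median-of-ratios scaling the medians of 14 further families turned from below to above 0, as given with each of them. Keratins had the highest median as deposited and with 4 libraries, but with scaling over egg and sperm alone claudins stood higher, at 2.80 against 2.74. The regulators of ciliogenesis and spermatogenesis had the lowest median under each of these scalings, but their list was added after these values were seen.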

How the data were processed

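Gene-level RNA-seq tables of 1 egg and 1 sperm library were compared. The deposited normalized counts (a signal per gene) were made by the authors by scaling each library's reads per gene with a TMM factor, per the file headers. The submitters' processing notes name BWA 0.6.1-r104, edgeR and Zv9 (danRer7); for the counting tool, strand setting and annotation, nothing is given in the sources used here, so overlapping or antisense genes and near-identical copies cannot be told apart. All values (100%) were whole multiples of 1 step per library within 0.01 reads, which gave read totals.

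Of entries sharing a name, the one with the highest sum was kept. RefSeq tables (GRCz12tu, names only) gave a current symbol for 13657 names and none for 587. Ratios used a pseudocount of 1, a floor of 10 and a 2-fold cutoff. A fold against no read is a bound at 3 reads and ignores counting error in the other library; other intervals are exact 95% intervals of the ratio of reads. Scaling alternatives, made in Python 3.11.15 with pandas 2.3.3, numpy 2.4.6 and scipy 1.17.1, were median-of-ratios, upper quartile and equal totals; pseudocounts of 0.1 and 5, no floor or 50, a 4-fold cutoff and summed entries were also tried. The arithmetic was tested on simulated data.

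Members and lists were chosen with earlier results of these data known; the lists of ciliogenesis regulators, actins, solute carriers and ion channels, and the copy pairs, were added after these values were seen. Genes named were, per list, the 3 highest and 3 lowest ratios and the 2 with most reads per library, every marker, and the 15 highest and 15 lowest ratios among genes at 100 or more; some were left out for room or are not reported here, and others, such as the paired copies, were chosen after their values were seen.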

Additional observations from a re-analysis of the deposited data

How the results depend on the processing

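No paired analysis was possible because each gamete has 1 library, and for the same reason no replicate could be left out. Over all genes, the 1777 higher in egg became 3668 under median-of-ratios scaling over 4 libraries, 3796 over egg and sperm alone, 3325 under upper-quartile scaling and 668 at a 4-fold cutoff. The genes lower in egg were 5027 with egg and sperm alone and stayed within 1.5 times 7625 under the other alternatives tried. The median of -1.80 became -0.49, -0.38 and -0.70 under the 3 scalings in that order. Of list medians past 2-fold, those of cyclins, DNA repair, ubiquitin conjugation and lysosome turned to 0.12, 0.018, 0.026 and 0.23 under the first scaling and to 0.21, 0.11, 0.11 and 0.31 under the second. Mitochondrial import turned to 0.0012 under the second, and lysosome to 0.025 under the upper quartile. Of 250 named genes, 231 passed 2-fold as deposited. Of these, 221 kept it under the first scaling, 219 under the second, 222 under the third and 229 at equal totals. Many were named for their extreme ratios, so these counts do not show how calls hold over all genes. The ratio of bbip1 turned to 0.22, 0.30 and 0.014 under the 3 scalings, that of rag1 to 0.092 and 0.18 under the first and second, and that of c21orf59l to 0.062 under the second. No list median or named gene past 2-fold as deposited turned under the other pseudocounts, floors or summed entries, and smaller ratios were not checked for this. A scaling shift is the same for every gene, apart from the pseudocount, and whether the gametes differ in total RNA was not measured. Genes under 3 reads in egg, whose library is the shallower, have the widest counting intervals.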
